A study of Homo sapiens with 6 samples.

Results

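The genes described here encode the SR proteins, the heterogeneous nuclear ribonucleoproteins (hnRNPs) and the CLK kinases of A2780 cells, a human ovarian cancer cell line. Members were chosen by gene symbol: protein-coding genes named SRSF with a number, HNRNP with a following letter, or CLK1 to CLK4. They numbered 39 of the 44591 genes listed, with 12 SR proteins, 23 hnRNPs and 4 CLK kinases. RNA was collected from 3 untreated libraries and from 3 libraries of cells given human recombinant CRMP2 (r-CRMP2, 40 ng/ml for 48 h), a protein studied as a product of tumor-associated fibroblasts. All 6 libraries came from wild-type A2780 cells, kept in DMEM with fetal bovine serum, with a 48 h time in the labels of both groups. The labels give the r-CRMP2 as added to the medium and name no control protein for the untreated cells. The design therefore holds 1 cell line, 1 dose and 1 time, and treatment with r-CRMP2 was compared with no addition. The labels do not say that replicates were separate cultures, so p-values measure only the spread between these libraries, which may be technical.

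SR proteins bind exonic enhancers in pre-mRNA through RNA recognition motifs and promote the use of nearby splice sites through a domain rich in arginine and serine. hnRNPs coat nascent transcripts and often act against SR proteins, by blocking splice sites or by looping exons out. CLK kinases phosphorylate the arginine-serine domain in the nucleus and so release SR proteins from nuclear speckles, the stores of splicing factors. Many SR protein and hnRNP genes hold down their own transcript level by including an exon that exposes the mRNA to nonsense-mediated decay.

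Each library held between 21888530 and 25711353 counts, of which the members took between 0.853% and 0.906%. The libraries of a group were close to each other, with correlations of log2 CPM across genes between 0.989 and 0.993, against 0.955 to 0.969 between the groups. Mitochondrial transcripts took 6.19% to 6.59% of the counts in the untreated libraries and 3.76% to 4.10% in the r-CRMP2 libraries, and their part in the results was not tested. Of 9 epithelial ovarian markers, CDH1 and WT1 were under 1 TPM in every library, whereas KRT8 was at 1061 TPM or more and KRT18 at 1750 TPM or more. EPCAM, KRT19, PAX8 and MUC16 were low, between 1.17 and 7.39 TPM, and MSLN was at 246 to 325 TPM. By the test described in the next paragraph, KRT18 and MSLN were higher and MUC16 was lower, with log2 fold changes of 0.20, 0.55 and -0.36. The summed level of 10 fibroblast markers was 263 to 301 TPM in the untreated and 191 to 204 TPM in the r-CRMP2 libraries, with COL1A1 at 94.2 to 191 TPM and FAP under 1 TPM. Of these markers only COL1A1 and PDGFRB were lower by the test described next, while COL1A2, LUM, PDGFRA and THY1 were higher, with log2 fold changes of 0.35, 0.53, 0.46 and 0.17. Leukocyte markers summed to 1.83 to 3.40 TPM, and the 3 endothelial markers summed to 3.52 to 3.92 TPM in the untreated and 0.633 to 1.05 TPM in the r-CRMP2 libraries. TPM does not include the correction for composition described next, so these sums and the log2 fold changes compare the groups on different scales. Whether other cells had a part in the results was not tested, and in bulk RNA fewer cells of a type and less RNA per cell cannot be told apart.

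The transcript levels of the splicing factors moved in both directions, and the CLK kinases moved most. In a filter on low counts, 36 of the 39 members passed; SRSF12, HNRNPCL1 and HNRNPCL2 had at most 4, 3 and 1 counts in a library. At an adjusted p-value threshold of 0.05, 21 members were higher and 7 lower in the r-CRMP2 group, and 8 did not pass, by edgeR's quasi-likelihood test and Benjamini-Hochberg's adjustment over 16222 genes. Among all genes tested, 28.2% were higher and 30.1% lower by the same test, or 58.2% in either direction, against 77.8% of the members tested. Scaled by library size without TMM, 12 members were higher and 16 lower. Most members are abundant: 33 had a mean of at least 50 CPM (counts scaled to a common library total by TMM, which corrects library size for composition), and of the 3977 genes at that level 73.3% passed. The share of members that passed was thus near that of genes of their level. With the log2 fold change threshold of 1 added, CLK1, CLK3, CLK4 and HNRNPLL were upregulated and HNRNPM was downregulated, where 5.12% and 8.86% of all genes tested were (14% in either direction). Of the genes with a mean of at least 50 CPM, a level that CLK4 did not reach, 6.34% passed both thresholds. The groups did not overlap for 30 members, with r-CRMP2 above in 22 and below in 8, against 30.9% and 33.3% of all genes tested (64.2% in either direction).

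By family, 3 of 4 CLK kinases were higher and none lower, with a median log2 fold change of 1.42. Of 21 hnRNPs tested, 14 were higher, 4 were lower and 3 did not pass, with a median of 0.29. Of 11 SR proteins tested, 4 were higher, 3 were lower and 4 did not pass, with a median of 0.02. The median over all genes tested was -0.03. The scaling moved every value by a similar amount: with library size alone the median of all genes became -0.34, that of the CLK kinases 1.11, that of the hnRNPs -0.02 and that of the SR proteins -0.29. Relative to the median gene, the 3 families stood at 1.45, 0.31 and 0.05 above it with TMM and at 1.45, 0.31 and 0.05 above it with library size alone. A shift common to all genes leaves such differences as they are, so their likeness under the scalings is not separate evidence. The genes with a mean of at least 50 CPM had a median of 0.21 with TMM, so the hnRNPs were little above genes of their level and the SR proteins were below them. With library size alone, the members called higher at a log2 fold change of 0.39 (HNRNPK) or less turned or lost their call.

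**Figure D1:**
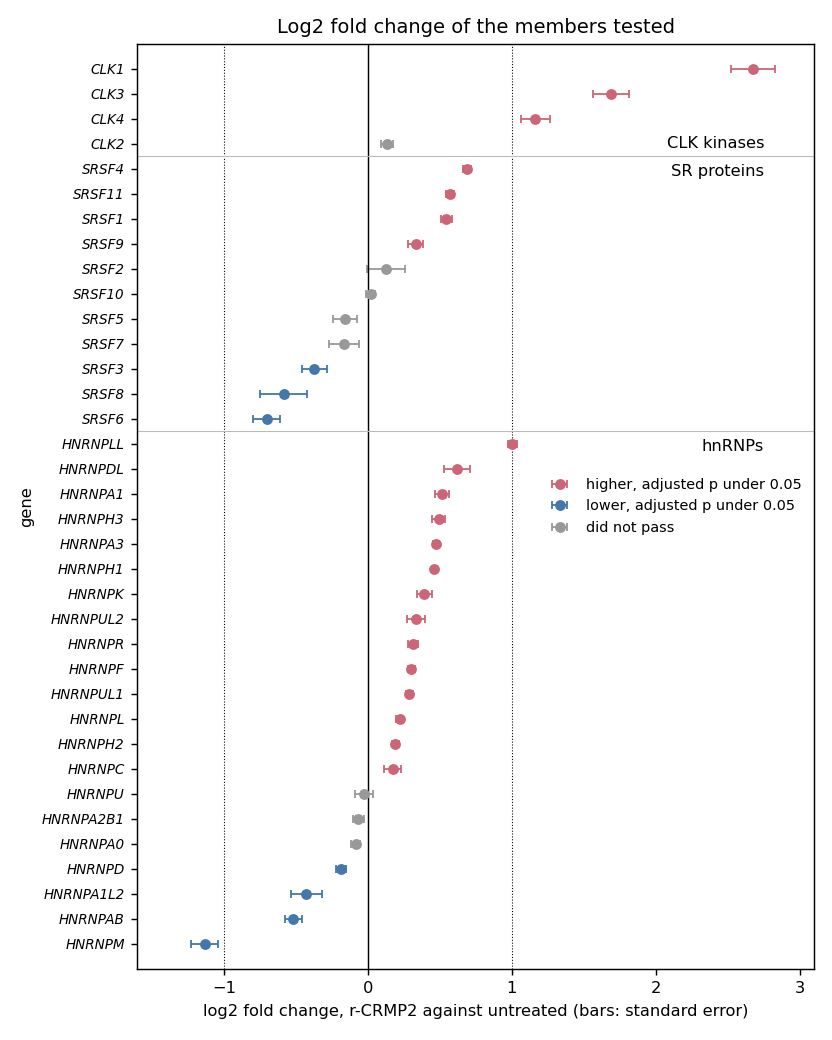
Log2 fold change (x axis) of the 36 members tested, r-CRMP2 against untreated with TMM scaling, by family; bars are standard errors (3 libraries a group) and dotted lines mark a log2 fold change of 1 in size. CLK1 at 2.67 and HNRNPM at -1.13 are the ends of the range, and 23 of the 36 points lie within 0.5 of 0.

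CLK1 had the largest rise of the members. Its level was 32, 26 and 24.5 CPM in untreated replicates 1, 2 and 3 and 152, 188 and 185 CPM in r-CRMP2 replicates 1, 2 and 3. Every r-CRMP2 library stood at least 4 times above every untreated one. The mean rose from 27.5 ± 3.97 to 175 ± 19.9 CPM (SD, n = 3), 6.37-fold, with a log2 fold change of 2.67 ± 0.15 (SE, the standard error; adjusted p = 9.93e-14, edgeR's quasi-likelihood test). CLK1 (chromosome 2, 201717732 to 201729467 in hg19, minus strand) encodes a kinase whose own pre-mRNA is known to be kept in the nucleus with introns retained and to be spliced to completion under stress.

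CLK3 (chromosome 15, 74900713 to 74922542, plus strand), a kinase also found in sperm cells, was at 82.5, 67.4 and 64.9 CPM in the untreated and 210.1, 240.3 and 241 CPM in the r-CRMP2 libraries. The groups were far apart, and untreated replicate 1 was the highest of its group for CLK1 and CLK3. CLK3 had a log2 fold change of 1.69 ± 0.13 (SE, adjusted p = 6.51e-12, edgeR's quasi-likelihood test), a 3.22-fold rise. CLK4 (chromosome 5, 178029665 to 178054054, minus strand), the closest relative of CLK1, had the lowest level of the family and went from 8.13, 8.44 and 6.73 CPM to 17.2, 17.8 and 17.1 CPM. Its libraries did not overlap, and its log2 fold change came to 1.16 ± 0.10 (SE, adjusted p = 4.17e-08, edgeR's quasi-likelihood test). With library size alone it was 0.85, still called but under the fold change threshold.

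CLK2 (chromosome 1, 155232659 to 155243320, minus strand) was the exception in the family. It was at 51.5, 51.8 and 47.9 CPM in the untreated and 54, 55.6 and 56.3 CPM in the r-CRMP2 libraries, and although the groups did not overlap, its log2 fold change of 0.13 ± 0.04 (SE) did not pass, at an adjusted p of 0.0949 in the quasi-likelihood test of edgeR. With library size alone the value was -0.18 (adjusted p = 0.0289). The TPM scale corrects for gene length, which allows genes to be compared, but does not include the TMM factors. These factors were 1.10 to 1.12 in the untreated and 0.88 to 0.92 in the r-CRMP2 libraries. Differences between the groups are therefore lower in TPM than in CPM, and CLK2 was higher in CPM but lower in TPM. The untreated levels were 63.3 TPM for CLK3, 56.4 for CLK2, 17.6 for CLK1 and 7.54 for CLK4. In the r-CRMP2 libraries the order was CLK3 at 163, CLK1 at 89.6, CLK2 at 49.3 and CLK4 at 13.5 TPM, so CLK1 and CLK2 changed places. In the untreated libraries CLK2 and CLK3 were neighbours, with a log2 ratio of CLK2 to CLK3 of -0.34, -0.04 and -0.10 (mean -0.16, SD 0.16, n = 3). CLK2 was below CLK3 in each of these libraries, by a mean about the size of the SD. The 4 kinases together summed to 134 to 156 TPM in the untreated and 300.1 to 332 TPM in the r-CRMP2 libraries.

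**Figure D2:**
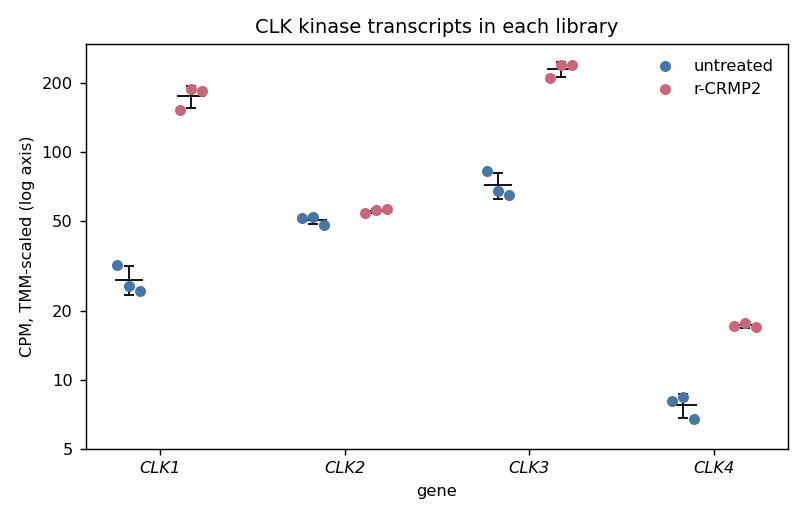
CPM after TMM scaling (y axis, log scale) of the CLK kinases in each untreated and r-CRMP2 library; horizontal marks and bars are the mean and SD of 3 libraries. CLK1 went from 27.5 ± 3.97 to 175 ± 19.9 CPM, while CLK2 lay between 47.9 and 56.3 CPM in all 6 libraries.

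The start regions of the CLK genes are shown because the study concerned HIF-1, whose core motif is ACGTG or GCGTG, and because 3 of the 4 genes rose. Each runs from 250 bases before to 50 bases after the RefSeq start (GRCh38.p14), written 5′ to 3′ on the strand of the gene, with every match to ACGTG or GCGTG on either strand in capitals (so CACGT and CACGC are matches on the other strand, and overlapping matches were each counted).
CLK1, chr2:200864609-200864908, minus strand: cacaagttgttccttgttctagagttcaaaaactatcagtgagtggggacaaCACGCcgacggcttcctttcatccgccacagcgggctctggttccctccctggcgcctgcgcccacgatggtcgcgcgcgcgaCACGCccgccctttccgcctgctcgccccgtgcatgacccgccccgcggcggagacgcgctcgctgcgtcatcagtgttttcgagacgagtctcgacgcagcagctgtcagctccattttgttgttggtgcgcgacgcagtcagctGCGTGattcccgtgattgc
CLK2, chr1:155273455-155273754, minus strand: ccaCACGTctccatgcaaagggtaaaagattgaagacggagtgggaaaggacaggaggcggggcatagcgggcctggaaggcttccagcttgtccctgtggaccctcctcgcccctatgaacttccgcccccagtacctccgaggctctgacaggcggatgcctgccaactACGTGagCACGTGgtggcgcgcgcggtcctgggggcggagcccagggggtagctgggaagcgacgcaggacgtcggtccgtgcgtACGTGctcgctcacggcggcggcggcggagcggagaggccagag
CLK3, chr15:74608122-74608421, plus strand: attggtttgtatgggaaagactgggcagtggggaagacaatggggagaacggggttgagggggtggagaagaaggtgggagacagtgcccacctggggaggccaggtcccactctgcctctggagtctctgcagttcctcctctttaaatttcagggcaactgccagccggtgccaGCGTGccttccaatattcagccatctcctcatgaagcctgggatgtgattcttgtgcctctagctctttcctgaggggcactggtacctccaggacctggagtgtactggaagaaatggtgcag
CLK4, chr5:178627001-178627300, minus strand: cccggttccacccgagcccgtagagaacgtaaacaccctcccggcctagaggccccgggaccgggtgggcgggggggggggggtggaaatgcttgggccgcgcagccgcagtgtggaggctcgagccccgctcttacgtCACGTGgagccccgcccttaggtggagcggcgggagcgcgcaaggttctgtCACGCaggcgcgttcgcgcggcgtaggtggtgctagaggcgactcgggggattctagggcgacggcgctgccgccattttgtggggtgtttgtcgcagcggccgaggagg

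The motif occurred 3 times in the window of CLK1, 5 times in that of CLK2, once in that of CLK3 and 3 times in that of CLK4. CLK2 thus held the most matches of the 4 windows and CLK3 the fewest. The palindrome CACGTG, which counts as a match on each strand, was in the windows of CLK2 and CLK4. Windows of 37 members were found, with HNRNPA1 and SRSF2 unmatched, and 31 of these held the core motif, against 48.4% of 27305 promoters and 62.7% of the 10520 promoters of genes tested. It was in 18 of the 20 matched members that were higher and in 5 of the 7 that were lower. CACGTG was in 9 of 37 windows, against 10% of those of genes tested, and the cAMP response element TGACGTCA, searched on both strands, was in none of the 37, against 3.22%. The windows of CLK1, CLK2, CLK3 and CLK4 had a GC content of 62.7%, 67.0%, 56.0% and 70.7%. A match of letters is a description of the window only, and whether HIF-1 acts on these genes was not tested.

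Among the SR proteins, SRSF4, SRSF11, SRSF1 and SRSF9 were higher and SRSF6, SRSF8 and SRSF3 were lower. SRSF4 (chromosome 1, 29474250 to 29508637 in hg19), one of the larger SR proteins, was at 93.4, 93.7 and 90.5 CPM in the untreated and 145, 150.3 and 152 CPM in the r-CRMP2 libraries. No r-CRMP2 library was as low as an untreated one, with a log2 fold change of 0.69 ± 0.03 (SE, adjusted p = 1.27e-08, edgeR's quasi-likelihood test). SRSF11, which differs from the classical SR proteins in its RNA-binding part, was at 102, 97.2 and 98 CPM and then at 148, 149 and 145 CPM. Its replicates lay within a few CPM of each other, and the log2 fold change came to 0.57 ± 0.03 (SE, adjusted p = 1.44e-07). SRSF1 (chromosome 17, 56078280 to 56084707), the founding member of the family and a known oncoprotein, went from 232, 238 and 235 CPM to 328, 358 and 341 CPM. This was a 1.46-fold rise, with a log2 fold change of 0.54 ± 0.04 (SE, adjusted p = 2.89e-07). SRSF9, a close relative of SRSF1 and the most abundant SR transcript per length at a mean of 296 TPM, shares 2086 bases with GATC on the other strand. It was at 143, 144 and 136 CPM and 169, 188 and 176 CPM, with a log2 fold change of 0.33 (adjusted p = 0.000148, edgeR's quasi-likelihood test). With library size alone its value was 0.02 and did not pass (adjusted p = 0.762).

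SRSF6 had the largest fall of the SR proteins. SRSF6 (chromosome 20, 42086504 to 42092245), which resembles SRSF4 in its domains, was at 150.3, 173 and 179 CPM in the untreated and 110.0, 99.2 and 99 CPM in the r-CRMP2 libraries. The groups were apart and the level was 1.63-fold lower, with a log2 fold change of -0.70 ± 0.09 (SE, adjusted p = 1.08e-07, edgeR's quasi-likelihood test). SRSF8, an expressed retrocopy related to SRSF2, was low, at 13.4, 17 and 16.2 CPM and 8.66, 11.6 and 10.9 CPM. Its groups did not overlap, but its replicates were the most spread of the SR proteins tested, with a log2 fold change of -0.58 ± 0.16 (SE, adjusted p = 0.000476). Reads of SRSF8 and SRSF2 could be exchanged where their sequences match, so its value is uncertain. SRSF3, the smallest SR protein, which also helps to export mRNA, was at 146, 151 and 167 CPM and 112, 130.1 and 117 CPM, with a log2 fold change of -0.37 ± 0.09 (SE, adjusted p = 0.000168).

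The other SR proteins tested overlapped between the groups. SRSF2, a general activator of exons that shares 847 bases with MFSD11, had a log2 fold change of 0.13 and SRSF10, a splicing repressor when dephosphorylated, of 0.02 (adjusted p = 0.201 and 0.788, edgeR's quasi-likelihood test). SRSF5 and SRSF7, the latter also an export adaptor, were at -0.16 and -0.17 (adjusted p = 0.0659 and 0.0702). Both passed without untreated replicate 1 (-0.23 and -0.25) and without r-CRMP2 replicate 2 (-0.18 and -0.20). SRSF2 passed without r-CRMP2 replicate 1, at 0.22. With upper quartile factors SRSF5 and SRSF7 also passed as lower (-0.20 and -0.21). With library size alone, SRSF2 and SRSF10 turned to -0.19 and -0.29 and SRSF5 and SRSF7 were at -0.47 and -0.48, and each of these genes then passed as lower. SRSF12, whose known expression is restricted, had 9 counts in the 3 untreated and 2 in the 3 r-CRMP2 libraries and was not tested.

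**Figure D3:**
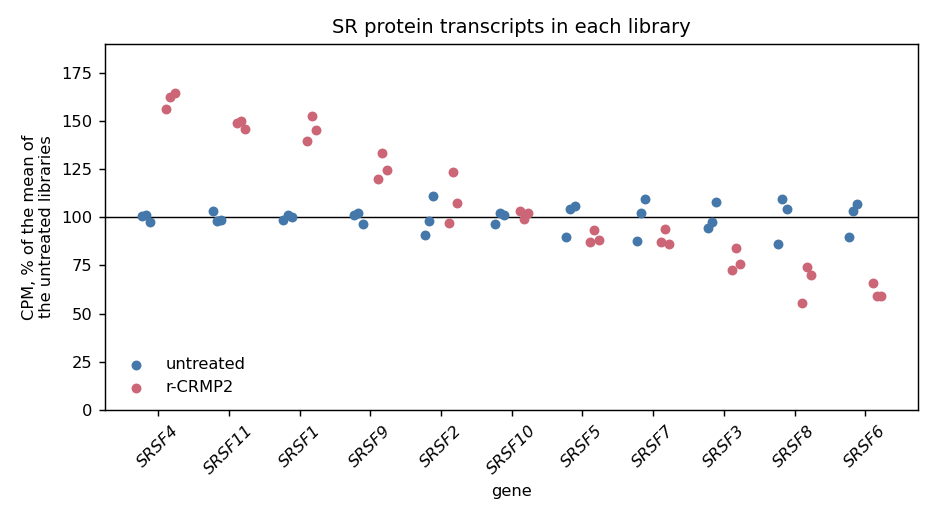
CPM of the 11 SR proteins tested in each library, as a percent of the mean of the 3 untreated libraries (y axis); each point is 1 library. SRSF4, SRSF11, SRSF1 and SRSF9 lie above all their untreated points, SRSF3, SRSF8 and SRSF6 below, and the 4 genes between them overlap.

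Among the hnRNPs, HNRNPLL rose most and HNRNPM fell most. HNRNPLL (chromosome 2, 38790328 to 38830178 in hg19, minus strand), a paralog of HNRNPL known for exon skipping of CD45 in T cells, was at 37.6, 37.2 and 36.4 CPM in the untreated and 71.9, 77.2 and 73.8 CPM in the r-CRMP2 libraries. Replicates were close and the groups far apart, with a log2 fold change of 1.003 ± 0.03 (SE, adjusted p = 2.87e-10, edgeR's quasi-likelihood test). This is just past the threshold of 1: the value lay between 0.99 and 1.04 as each library was left out and was 0.69 with library size alone, 0.96 with upper quartile factors and 0.994 without the filter on low counts. HNRNPDL, a relative of HNRNPD that binds AU-rich RNA, was at 117, 122 and 123 CPM and 167, 205 and 184 CPM, with a log2 fold change of 0.62 ± 0.09 (SE, adjusted p = 4.50e-07). HNRNPA1 (chromosome 12, 54674474 to 54680872), the archetypal silencer of exons and the most abundant member at a mean of 1782 TPM, was at 1439, 1487 and 1477 CPM and 1993, 2231 and 2070.2 CPM. Its groups did not overlap and its log2 fold change came to 0.52 ± 0.05 (SE, adjusted p = 1.23e-06). HNRNPH3, of the family that binds runs of G, was at 139, 129.9 and 125 CPM and 185, 187 and 183 CPM, a log2 fold change of 0.49 (adjusted p = 1.43e-06). These 4 were higher under every alternative tried.

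HNRNPM (chromosome 19, 8509712 to 8554002, plus strand), a regulator of splicing in the epithelial to mesenchymal transition, was at 205, 233 and 255 CPM in the untreated and 103, 106 and 107 CPM in the r-CRMP2 libraries. The untreated libraries were spread, the r-CRMP2 libraries were within a few CPM, and the level was 2.19-fold lower. The log2 fold change came to -1.13 ± 0.09 (SE, adjusted p = 2.16e-10, edgeR's quasi-likelihood test). HNRNPAB, a relative of HNRNPD that shares 2710 bases with PHYKPL, was at 227, 248 and 255 CPM and 167, 177 and 166 CPM, with a log2 fold change of -0.52 ± 0.06 (SE, adjusted p = 1.11e-06). HNRNPA1L2, an expressed retrocopy of HNRNPA1, was at 6.29, 7.58 and 6.58 CPM and 4.68, 5.56 and 4.96 CPM. Its groups did not overlap, with a log2 fold change of -0.43 (adjusted p = 0.0164), but it did not pass without untreated replicate 2, r-CRMP2 replicate 1 or r-CRMP2 replicate 3 (-0.35, -0.36 and -0.41). Since HNRNPA1L2 resembles HNRNPA1, which had over 200 times its CPM, the division of reads between them is uncertain. HNRNPD (AUF1), which promotes decay of AU-rich mRNA, was at 166, 174 and 172 CPM and 144, 154 and 152 CPM, with a log2 fold change of -0.19 (adjusted p = 0.0124, edgeR's quasi-likelihood test). It did not pass without untreated replicate 2 (-0.17) or r-CRMP2 replicate 1 (-0.15).

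The other 10 hnRNPs that were higher changed by less. HNRNPA3, HNRNPH1 and HNRNPK had log2 fold changes of 0.47, 0.46 and 0.39, of which HNRNPK, which binds C-rich RNA and DNA, did not pass with library size alone (0.080, adjusted p = 0.208 in the same test of edgeR). HNRNPUL2, HNRNPR, HNRNPF, HNRNPUL1, HNRNPL, HNRNPH2 and HNRNPC had log2 fold changes between 0.17 and 0.34, and with library size alone HNRNPF, HNRNPUL1, HNRNPL, HNRNPH2 and HNRNPC turned to values between -0.14 and -0.0092, of which HNRNPC was then called lower (adjusted p = 0.0358). HNRNPH2 did not pass without untreated replicate 2 (0.18, adjusted p = 0.0560) or without the filter on low counts (0.18, adjusted p = 0.0516). HNRNPH2 and HNRNPUL2 lie wholly within readthrough genes that carry counts of their own, so their values are uncertain. HNRNPC, a U-tract binder that keeps cryptic exons out, was the least firm, with an adjusted p of 0.0268. It did not pass without untreated replicate 2 (0.16), untreated replicate 3 (0.18) or r-CRMP2 replicate 2 (0.12), nor without the filter (0.16) or with upper quartile factors (0.13). HNRNPU, a chromatin-associated scaffold that overlaps an antisense-type gene with a mean of 1661 counts, HNRNPA2B1, a partner of HNRNPA1 in the core particle, and HNRNPA0 did not pass, at -0.03, -0.07 and -0.09 (adjusted p = 0.743, 0.354 and 0.227). All 3 passed as lower with library size alone. HNRNPCL1 had 6 counts in the untreated libraries and HNRNPCL2 had 2 in the r-CRMP2 libraries, and both were otherwise at 0.

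The ratio of a gene to a close relative was followed in each library. Ratios of deposited TPM between 2 genes inside a library do not depend on the scaling of libraries, and 18 pairs of related members were compared, chosen after the values were seen. With 3 libraries against 3, an exact permutation test (two-sided) cannot go below 0.1, so the ratios are given as a description. In 16 of the 18 pairs the groups did not overlap, but some genes were in more than 1 pair. As single genes, 64.2% of all genes tested and 30 of the 36 members tested did not overlap, and no share over other gene pairs was computed. Some ratios moved away from 1 and others towards it, also where both genes had changed in the same direction. The ratio of CLK1 to CLK4 was 2.34 in the untreated and 6.64 in the r-CRMP2 libraries, and that of CLK2 to CLK3 was 0.894 and 0.304. SRSF4 was at 0.880 times SRSF6 in the untreated and at 2.31 times in the r-CRMP2 libraries, so the order of this pair turned in every r-CRMP2 library. In the same order of groups, HNRNPD was at 2.66 and 1.53 times HNRNPDL, HNRNPL at 11.6 and 6.72 times HNRNPLL, and HNRNPA1 at 4.05 and 6.06 times HNRNPA2B1. Only HNRNPH1 to HNRNPH3 and HNRNPUL1 to HNRNPUL2, of the pairs compared, overlapped between the groups (exact p = 0.6 each).

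**Figure D4:**
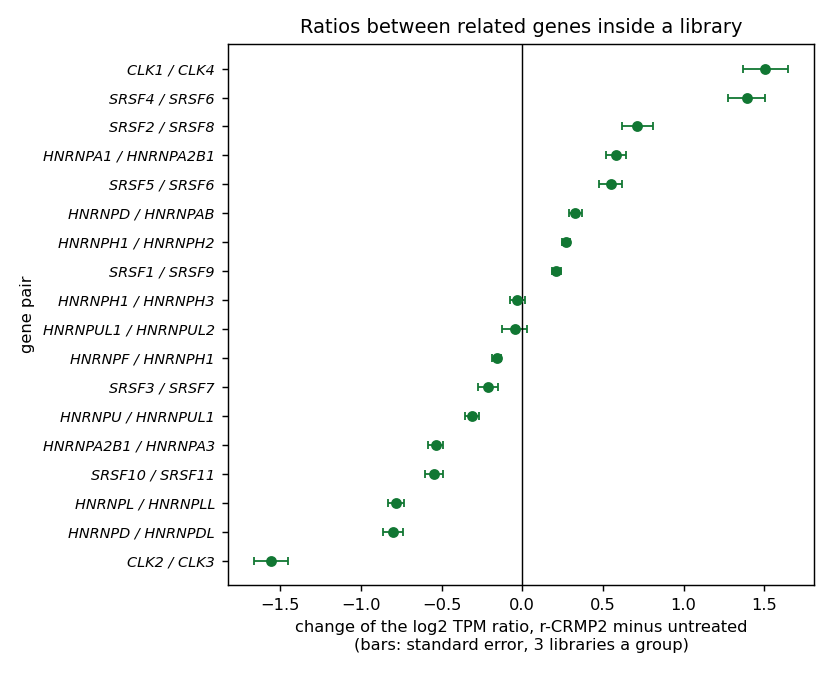
Change of the log2 TPM ratio of 18 pairs of related genes (x axis), mean of 3 r-CRMP2 minus mean of 3 untreated libraries, with standard errors. The change was 1.51 for CLK1 to CLK4, 1.39 for SRSF4 to SRSF6 and -1.56 for CLK2 to CLK3, and near 0 for HNRNPH1 to HNRNPH3 (-0.03).

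Counts per gene add up all isoforms, so a productive mRNA and a transcript destined for decay cannot be told apart here. In the GENCODE 29 annotation, a transcript of the nonsense-mediated decay type was listed for 27 of the 36 members tested, among them all 11 SR proteins, 13 of 21 hnRNPs and 3 of 4 CLK kinases. Such a transcript was listed for 42.7% of the 12569 protein-coding genes tested and for 46.2% of those with at least 50 CPM. It was listed for 76.2% of the members that were higher, 71.4% of those that were lower and 75% of those that did not pass. A retained-intron transcript was listed for 69.4% of the members tested, against 57.5% of protein-coding genes tested and 67.7% of those with at least 50 CPM, a share like that of the members.

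Genes that act on or beside these families were counted in 5 lists. Their counts are to be read against the 58.2% of all genes and the 73.3% of genes with at least 50 CPM that passed, and their medians against -0.03 and 0.21. Of 14 tested kinases and phosphatases of SR proteins beyond the CLKs, 6 were higher, 5 were lower and 3 did not pass, with a median log2 fold change of 0.02. SRPK1, the cytoplasmic kinase that sends SR proteins into the nucleus, was at -0.26, and its relative SRPK2 was at 0.43 (adjusted p = 0.00125 and 4.13e-05, edgeR's quasi-likelihood test). PPP1R10, which targets protein phosphatase 1 to the nucleus, fell from 104 ± 4.74 to 8.23 ± 2.36 CPM (SD, n = 3), a log2 fold change of -3.66 ± 0.23 (SE, adjusted p = 3.83e-14). PPP1R8, another nuclear regulator of this phosphatase, was at -0.49 and DYRK1B at -0.64, while the catalytic subunit PPP1CC at 0.48, DYRK2 at 0.51 and PRPF4B, a kinase of the spliceosome, at 0.49 were higher.

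Of 30 SR-related proteins, 16 were higher, 6 were lower and 8 did not pass, with a median log2 fold change of 0.17. RBM39, a partner of U2AF, went from 253 ± 7.94 to 461 ± 22.7 CPM (log2 fold change 0.87), SRRM1, a coactivator in the exon-bridging complex, was at 0.81 and LUC7L2 at 0.61. U2SURP was at -0.74, SON, a scaffold of nuclear speckles, at -0.65 and THRAP3 at -0.60, all lower by edgeR's quasi-likelihood test. Of 37 tested hnRNPs under other symbols and other regulators, 14 were higher, 8 were lower and 15 did not pass, with a median of 0.12. SFPQ, a paraspeckle protein, fell from 245 ± 29.2 to 79.1 ± 6.77 CPM (SD, n = 3; log2 fold change -1.63, adjusted p = 8.76e-12, edgeR's quasi-likelihood test). PSPC1, another paraspeckle protein, was at -0.90. MBNL2 at 0.89, CELF1 at 0.53 and FUBP1 at 0.50 were the largest rises among the genes of that list that passed.

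Of 43 core snRNP and U2 proteins, 19 were higher, 9 were lower and 15 did not pass, with a median log2 fold change of 0.16 and values between -0.43 and 0.65. SNRNP27, PRPF3 and SF3B2 were at 0.65, 0.63 and 0.52, and SF1, which binds the branch point, PRPF6 and PRPF4 were at -0.43, -0.34 and -0.33. Of 19 factors of nonsense-mediated decay, 9 were higher, 3 were lower and 7 did not pass, with a median of 0.10. NBAS at 0.66 and EIF4A3, a subunit of the exon junction complex, at 0.53 were higher, and MAGOHB at -0.87, SMG8 at -0.77 and UPF2 at -0.32 were lower. RNPS1 was in both this list and that of the SR-related proteins. With library size alone, the lower genes outnumbered the higher ones in all 5 lists.

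**Figure D5:**
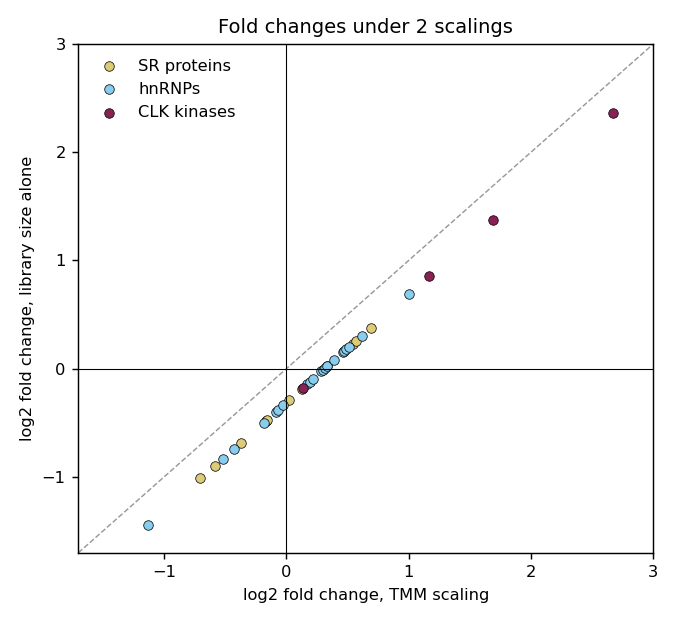
Log2 fold change of the 36 members tested with TMM scaling (x axis) and with library size alone (y axis); the dashed line marks equal values. All points lie below it by a similar amount, CLK1 being at 2.67 and 2.36, CLK2 at 0.13 and -0.18 and HNRNPM at -1.13 and -1.45.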

How the data were processed

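Polyadenylated RNA of 3 untreated and 3 r-CRMP2-treated A2780 libraries was sequenced. The authors deposited raw counts per gene, not normalized, with the gene length and position. The authors also deposited TPM, which differed by at most 4.72e-06 from the counts divided by length and rescaled. FastQC, HISAT2, DESeq2 and hg19 are named in the submitters' processing notes, without versions; the counting tool, annotation and use of strand are not given in the sources used here. Of the gene names, 27 were written as dates.

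The r-CRMP2 and untreated groups were tested in R 4.3.3 by the quasi-likelihood method of edgeR 4.0.16 (with limma 3.58.1) over all genes after TMM scaling and edgeR's filter on low counts, with Benjamini-Hochberg adjustment, an adjusted p threshold of 0.05 and, where said, a log2 fold change threshold of 1. Standard errors come from log2 CPM with a prior count of 2. Total counts of the libraries lay between 21888530 and 25711353. The members, pathway lists and marker lists were chosen with earlier results of these data known. Values per library are given for the members past both thresholds, the CLK kinases, the 4 largest rises and falls in each other family and the most abundant member, and of each list up to 3 rises and 3 falls; SRPK1 and SRPK2 were added after their values were seen. A few list genes chosen this way are left out here. Whether reads were assigned by strand is not known, and overlapping genes can share them. The alternatives were DESeq2 (1.42.0), RLE and upper quartile factors, library size alone, no filter, the replicate number as a block, leaving out each library in turn and a test against a fold of 1.2. The test was tried on simulated data, where it recovered 30 of 197 genes changed by a log2 of 0.3, 121 of 195 at 0.5 and 165 of 199 at 1. It called 1, 11 and 17 unchanged genes in these trials. Far fewer genes were changed there than passed in these data, so the shares need not carry over. Members that did not pass may still have changed by a small amount. Promoters are from RefSeq and transcript types from GENCODE, matched by symbol.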

Additional observations from a re-analysis of the deposited data

How the results depend on the processing

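DESeq2 and RLE factors left the direction and the call of all 36 members tested as they were. Without the filter on low counts or with upper quartile factors, 3 members were higher past both thresholds, and in the former fit HNRNPC and HNRNPH2 did not pass. With library size alone, which lowered the median of all genes from -0.03 to -0.34, 12 members were higher and 16 lower, and 2 and 2 were past both thresholds. SR proteins lower were then 7 and their median was -0.29. Of the hnRNPs, 6 were higher and 8 lower, with a median of -0.025, and 1 CLK kinase was lower, with a family median of 1.11. CLK2 turned to -0.18, HNRNPC to -0.14, HNRNPF to -0.0092, HNRNPH2 to -0.12, HNRNPL to -0.091, HNRNPUL1 to -0.025, SRSF10 to -0.29 and SRSF2 to -0.19. In the lists, 2 kinases and phosphatases were higher; the higher and lower genes were 5 and 14 of the SR-related proteins, 5 and 18 of the other regulators, 5 and 21 of the core proteins and 3 and 10 of the decay factors. Over all genes, 2171 were then higher and 8449 lower. With upper quartile factors, 5 SR proteins were lower, the hnRNP median was 0.24 and SRSF10 was at -0.027. Tested against a fold of 1.2, 13 members were higher and 4 lower, 7 hnRNPs higher and 2 lower, 3 kinases and phosphatases lower, 8 SR-related proteins higher, 5 other regulators lower, 5 core proteins higher and 1 lower, and 3 decay factors higher. As each library was left out, 19 to 22 members were higher and 5 to 9 lower, with 3 to 5 SR proteins and 2 to 4 hnRNPs lower; SRSF10 lay between -0.0056 and 0.047 and HNRNPU between -0.076 and 0.020. The 5 lower SR proteins occurred without untreated replicate 1 and without r-CRMP2 replicate 2, and the 2 lower hnRNPs without untreated replicate 2 and without r-CRMP2 replicate 1. The labels do not say whether libraries of the same replicate number were paired. No shared deviation was seen, as same-numbered libraries correlated at -0.02, 0.0038 and -0.03 in their deviations. Of 6 libraries, 0 correlated best with their own number. With that number as a block, 20 members were higher and 7 lower, and HNRNPC, at 0.17 (adjusted p = 0.0605 in edgeR), was the one call that changed. The cause of these changes was not tested, except that the scaling itself moves all genes. At this depth SRSF12, HNRNPCL1 and HNRNPCL2 could not be compared.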

Other observations

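Several members share bases with other genes. HNRNPH2 lies wholly within the readthrough gene RPL36A-HNRNPH2, which held a mean of 9720 counts and had a log2 fold change of 0.50. HNRNPUL2 lies within HNRNPUL2-BSCL2 (3934 counts, 0.28), and SRSF9 shares 2086 bases with GATC on the other strand (1800 counts, 0.39). HNRNPU overlaps the gene listed as ENSG00000188206.5 (1661 counts, 0.50). SRSF2 shares 847 bases with MFSD11 (739 counts, -0.21), and HNRNPAB shares 2710 bases with PHYKPL (576 counts, -0.58). Within HNRNPK lies the microRNA gene MIR7-1, with a mean of 35.2 counts and a log2 fold change of 2.94, and an antisense transcript, ENSG00000235298.1, at 1.204. RPL36A-HNRNPH2, HNRNPUL2-BSCL2, ENSG00000188206.5 and MIR7-1 lie on the strand of their member, so the strand of a read could not tell them apart. GATC, MFSD11, PHYKPL and ENSG00000235298.1 lie on the other strand, and their reads cannot be told apart if strand was not used. Of HNRNPA1, 67 copies, found by their pseudogene names, were listed and held between 1.33% and 1.49% of its counts. Copies of the other members held at most 0.629% of the counts of the member.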
